A study of Mus musculus with 18 samples.

Results

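The claudins described here are 9 genes, Cldn1, Cldn3, Cldn4, Cldn5, Cldn7, Cldn10, Cldn11, Cldn12 and Cldn15, taken by symbol from 52093 symbols in the deposited files, which hold 23 claudin genes in all. The members were chosen by symbol with their reads in these data known, and their rows were selected on mean RPKM over all samples, so the presence of reads for them is no finding. The samples were 18 RNA-seq libraries from male wild-type mice that had eaten a high-fat diet (HFD) over 12 weeks, 6 of adipocytes isolated from inguinal white adipose tissue (iWAT), 6 of adipocytes isolated from epididymal white adipose tissue (eWAT) and 6 of whole brown adipose tissue (BAT). The labels give the strain as C57BL/6 and, in the extraction protocol, C57BL/6J, and the supplementary methods give C57BL/6NTac and an age of 16 weeks. One treatment field gives regular chow against the sample titles and the protocol, and the samples were taken as HFD. All mice were wild type and on the same diet, so the comparisons are between tissues only. Below, iWAT and eWAT stand for the isolated adipocytes. The white adipocytes were the floating layer after collagenase digestion, whereas BAT was frozen and extracted whole with its vessels, nerves and stroma, so tissue and preparation cannot be told apart where BAT is compared.

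Claudins are multi-pass membrane proteins that form the strands of tight junctions between neighbouring cells. Some members seal the space between cells and others form pores that let selected ions through, and an epithelium or endothelium takes its permeability from the mix it makes. Adipocytes are not joined by tight junctions of the epithelial kind. In adipose tissue the barrier cells are the endothelium of the capillaries, the mesothelium on the surface of visceral depots and, beside eWAT, the epithelium of the epididymis.

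All 9 members had 1 row each, in the mm9 genome build. Cldn5 (Entrez 12741) has a single exon on chromosome 16, from 18776940 to 18778355 on the plus strand. Cldn15 (Entrez 60363) has 6 exons on chromosome 5, from 137443713 to 137451728 on the plus strand. Cldn12 (Entrez 64945) has 5 exons on chromosome 5, from 5505015 to 5514976 on the minus strand. Cldn4 and Cldn3 are single-exon neighbours on chromosome 5, with 39279 bases between their rows. The row of Cldn10 overlapped Dzip1 on the other strand by 2568 bases and that of Cldn3 overlapped Wbscr25 by 44 bases, and whether counting used strand is not given in the sources used here, so the low counts of these genes are uncertain.

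The 250 bases before the start of transcription are shown for Cldn5, Cldn15 and Cldn12, because these genes carried nearly all claudin reads and differed between iWAT and eWAT in the same direction. They are RefSeq sequences of build GRCm38.p6, 5′ to 3′ on the strand of the gene, with the GC box GGGCGG and the ETS-type letters CCGGAA in capitals on either strand. The windows are chr16:18776597-18776846 on the plus strand for Cldn5, chr5:136967619-136967868 on the plus strand for Cldn15 and chr5:5514977-5515226 on the minus strand for the most upstream of 3 listed starts of Cldn12.
Cldn5: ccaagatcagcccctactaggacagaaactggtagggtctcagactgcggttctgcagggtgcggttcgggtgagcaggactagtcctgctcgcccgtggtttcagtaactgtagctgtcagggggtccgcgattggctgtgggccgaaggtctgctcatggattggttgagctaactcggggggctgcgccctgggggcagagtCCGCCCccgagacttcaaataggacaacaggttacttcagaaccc
Cldn15: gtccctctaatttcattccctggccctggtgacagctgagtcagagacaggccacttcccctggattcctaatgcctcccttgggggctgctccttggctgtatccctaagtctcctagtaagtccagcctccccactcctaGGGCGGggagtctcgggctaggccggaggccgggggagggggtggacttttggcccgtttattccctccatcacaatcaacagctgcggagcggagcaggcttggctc
Cldn12: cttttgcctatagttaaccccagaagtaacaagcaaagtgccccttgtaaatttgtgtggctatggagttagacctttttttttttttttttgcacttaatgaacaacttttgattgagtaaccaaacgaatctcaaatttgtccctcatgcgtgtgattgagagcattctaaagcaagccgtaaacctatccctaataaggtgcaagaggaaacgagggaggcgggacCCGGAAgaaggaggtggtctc

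The Cldn5 window held 1 GC box, whose first base lay 45 bases before the start, and the Cldn15 window held 1 at 108 bases. The Cldn12 window shown held no GC box but 1 CCGGAA at 21 bases. The windows of the other 2 listed starts of Cldn12 each held 1 GC box, at 13 and 73 bases, and had a GC content of 58.8% and 65.2%. The GC content of the 3 windows shown was 59.6%, 60.8% and 42.0%, against a median of 52.4% over 32851 mouse promoters. All 9 members matched the promoter table, in 13 windows of 250 bases. GGGCGG stood in 9 of the 13 windows and in 32.7% of all promoters, and CCGGAA in 5 of 13, all of Cldn7 or Cldn12, and in 12.0% of all promoters. The TATA box TATAAA stood in 0 of 13 windows and in 12.4% of all promoters, and the E-box CANNTG in 6 of 13 and in 66.2%. Windows of 1 gene can overlap and then share a match. These are matches of letters in a short window and no account of which factor binds.

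Reads on the rows of the files summed to between 24655056 and 42518483 per sample. The labelled tissues carried their markers. The 5 brown adipocyte markers summed to 2234 to 3028 RPKM (read counts scaled to transcript length and to library size) in BAT, against 12.1 to 17.2 in iWAT and 3.45 to 5.62 in eWAT. The 6 adipocyte markers were high in all samples, at 11368 to 15929, 2542 to 7898 and 5554 to 6803 RPKM. The white adipocyte fractions also held other cells, with 12 endothelial markers at 166 to 472 RPKM in iWAT and 67.4 to 127 in eWAT, beside 127.7 to 192 in BAT. The 8 macrophage markers summed to 480 to 934, 2719 to 4316 and 32.6 to 63.0 RPKM. The 5 skeletal muscle markers reached 16.9, 4.94 and 106 RPKM, the 6 fibroblast and progenitor markers 92.7, 77.3 and 26.7, the 5 lymphatic endothelial markers 7.34, 21.5 and 3.13, and the 8 mesothelial markers 2.73, 6.36 and 10.0. The mesothelial sum in BAT was nearly all Lrrn4, at 7.02 to 9.90 RPKM, with Msln, Upk3b, Upk1b and Wt1 at 0 or 1 read in every BAT sample, and the lymphatic sum in eWAT was mostly Pdpn, at 13.7 to 19.4 RPKM. In these bulk samples, fewer cells of a type and less RNA per cell cannot be told apart.

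Claudin expression in all 3 tissues was almost wholly that of Cldn5, Cldn15 and Cldn12. Together they held 98.9% of all claudin reads in iWAT, 95.9% in eWAT and 97.9% in BAT. The other 6 members together held 0.161%, 1.24% and 1.13%. In RPKM, which is per length and so can be set side by side between genes, the order was Cldn5 above Cldn15 above Cldn12 in every white depot sample. Cldn15 was 4.68 to 7.94 times Cldn12 in iWAT and 2.52 to 3.74 times in eWAT. In BAT this ratio ran from 0.560 to 1.46 around 1, so the order of Cldn15 and Cldn12 differed between BAT samples.

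**Figure D1:**
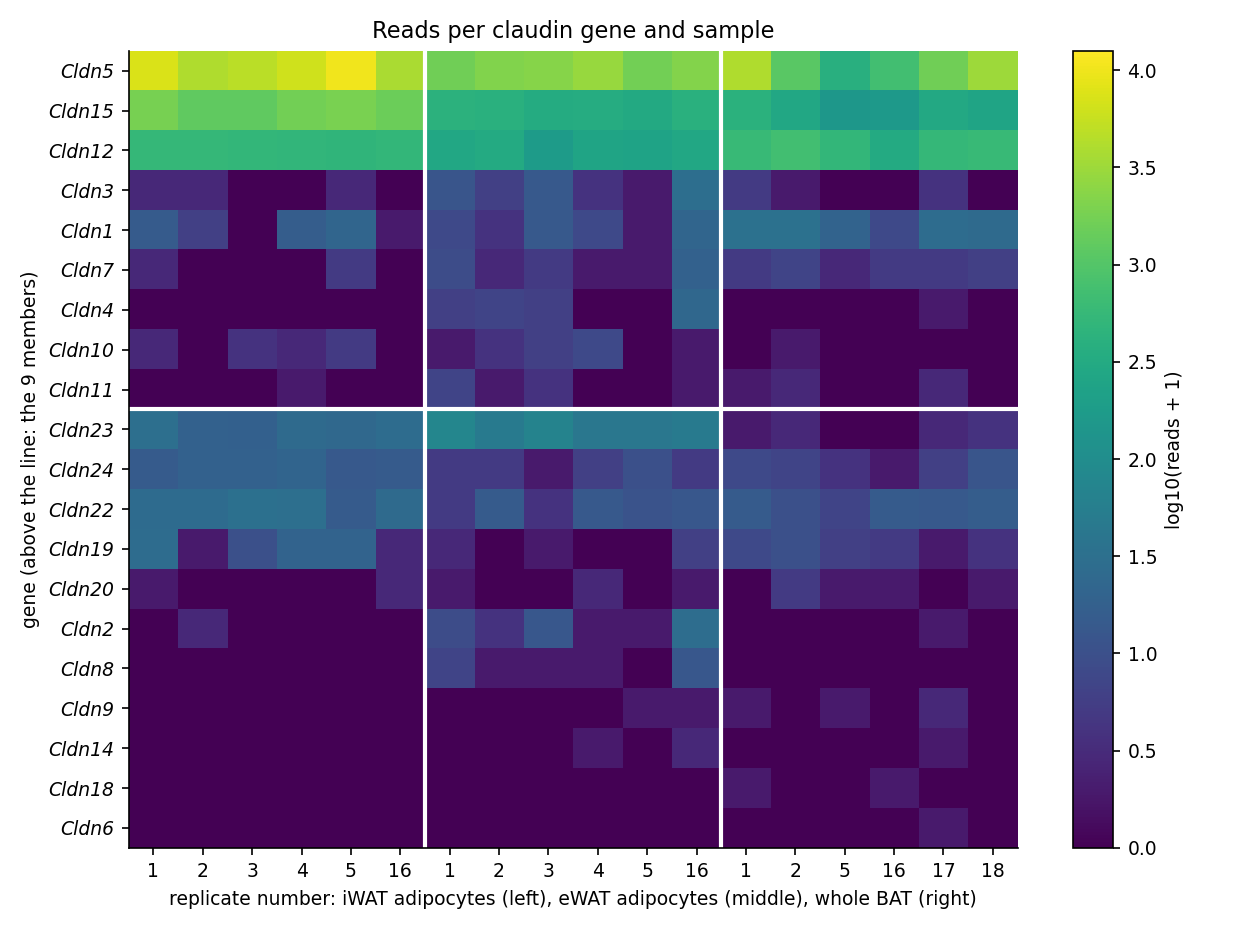
Reads of each claudin gene (rows, members above the white line, genes with no read in any sample left out) in each of the 18 samples (columns, by replicate number within iWAT, eWAT and whole BAT), as log10(reads + 1) by colour. Cldn5, Cldn15 and Cldn12 form the only bright rows, and the faint eWAT signal of Cldn3, Cldn4, Cldn7, Cldn2 and Cldn8 is brightest in replicate 16.

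Each pair of tissues was compared on the counts with edgeR's quasi-likelihood test and TMM scaling, with p-values adjusted over all genes tested and a call at an adjusted p under 0.05. A gene was tested at a mean count of at least 10 in the pair, which 3 or 4 members reached. Between iWAT and eWAT, 3 of 9 members were tested and 3 were called, all higher in iWAT, where 68.6% of 19623 genes were called in either direction and 34.1% were higher in iWAT. Between iWAT and BAT, 4 were tested and 4 called, 2 in each direction, against a background of 75.3% of 19745 genes, 38.1% higher in iWAT and 37.2% higher in BAT. Between eWAT and BAT, 4 were tested and 2 called, both higher in BAT, against 82.5% of 20076 genes called, 41.1% higher in eWAT and 41.4% higher in BAT. In both comparisons with BAT, Cldn1 was among the members tested and called, and it passed the filter only through its reads in BAT. With most genes called in every comparison, a call says little by itself, and the sizes below are what the claudins add. The comparisons share samples, the same 6 BAT libraries standing in both BAT comparisons.

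**Figure D2:**
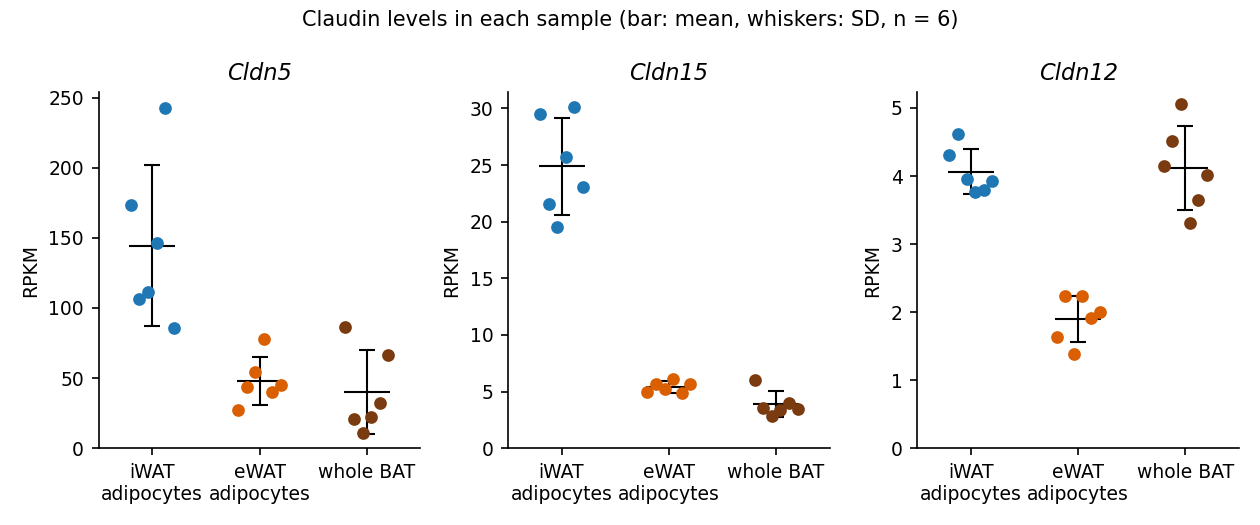
RPKM of Cldn5, Cldn15 and Cldn12 in each sample (points) of iWAT, eWAT and whole BAT, with the mean (bar) and SD (whiskers) of 6 samples and axes from 0. Cldn15 in iWAT stands at 19.5 to 30.1 RPKM, above all other samples, while Cldn5 in BAT spreads from 11.04 to 86.6 RPKM.

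Cldn5 is the main claudin of endothelial tight junctions and is best known from the blood-brain barrier. Its RPKM in iWAT was 85.6 at the lowest, 129 at the median and 242 at the highest, with a mean of 144 ± 57.3 (SD, n = 6). In eWAT it was 27.5, 44.5 and 78.0 (mean 48.1 ± 17.01), and in BAT 11.04, 27.3 and 86.6 (mean 39.9 ± 29.8). Every iWAT sample was above every eWAT sample, and 1 BAT sample, replicate 1, reached into the range of iWAT. Over all genes tested, 44% had no overlap between iWAT and eWAT. The mean placed Cldn5 at rank 297 of the 52093 symbols in iWAT, rank 1051 in eWAT and rank 812 in BAT.

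Cldn5 was higher in iWAT than in eWAT by 1.58 on the log2 scale (SE 0.26, edgeR adjusted p = 0.00016), a 2.999-fold ratio of mean RPKM. It was higher in iWAT than in BAT by 1.24 (SE 0.40, edgeR adjusted p = 0.010), and by 2.102 without TMM scaling. Between eWAT and BAT the log2 difference was -0.31 (SE 0.39, edgeR adjusted p = 0.48), and it was 0.58 without TMM scaling, so no direction is given. The libraries of iWAT and eWAT were spread over the same lanes, and the log2 ratio of iWAT over eWAT was 1.37 within lane 1 (2 against 4 samples) and 1.98 within lane 2 (4 against 2). BAT was sequenced in lanes of its own, so lane and tissue cannot be told apart there.

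The spread of Cldn5 within BAT was wide. Replicates 1 and 18 stood at 86.6 and 66.2 RPKM, replicate 17 at 32.4, and replicates 16, 2 and 5 at 22.2, 20.8 and 11.04, a 7.84-fold range. The coefficient of variation was 74.7%, where the median over 12501 genes with a mean of at least 1 RPKM in BAT was 14.6%, and 36 of these genes had a larger one. It was 39.7% in iWAT and 35.4% in eWAT, above 96.2% and 94.3% of genes. Replicates 1 and 5, the highest and the lowest, were sequenced in lane 3 and the other 4 BAT samples in lane 4, and the part of lane in this spread was not tested.

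Of the 12 endothelial markers, 11 were higher in iWAT than in eWAT and none lower, with a median log2 difference of 1.69, where the median of all genes tested was 0.0014. Markers of other cell types differed between the white depots too, with 6 of 6 adipocyte markers higher in iWAT (median 1.43) and 8 of 8 macrophage markers higher in eWAT (median -2.105). The background was 34.1% of all genes called higher in iWAT and 34.5% higher in eWAT. In iWAT against BAT, 5 endothelial markers were higher and 1 lower (median 0.077, all genes 0.014), and 11 of 12 were higher in BAT than in eWAT (median -1.37, all genes -0.017). Here 75.3% of all genes were called between iWAT and BAT, and 41.4% were higher in BAT than in eWAT. Cdh5, which encodes VE-cadherin of endothelial adherens junctions, was 62.5 to 177 RPKM in iWAT, 21.1 to 44.4 in eWAT and 34.5 to 54.7 in BAT.

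The ratio of Cldn5 to the summed 12 markers was therefore taken, a measure chosen after the values were seen. It was 0.425 at the lowest, 0.498 at the median and 0.538 at the highest in iWAT (mean 0.488 ± 0.043, n = 6), and 0.408, 0.515 and 0.612 in eWAT (0.512 ± 0.084). In BAT it was 0.0865, 0.184 and 0.451 (0.231 ± 0.142). The white depots overlapped throughout, whereas 5 of the 6 BAT samples lay below every white depot sample and replicate 1, at 0.451, lay among them.

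The log2 ratio of Cldn5 to these markers differed by -0.060 between iWAT and eWAT (two-sided exact permutation p = 0.60, the same adjusted over 3 comparisons). The markers were taken after they were seen to be higher in iWAT by a median of 1.69, beside 1.58 for Cldn5. A small ratio difference followed from that choice, so a p-value for this pair decides nothing. The adipocyte markers were higher in iWAT too, by a median of 1.43. The ratio of Cldn5 to the 12 markers was higher in iWAT than in BAT by 1.30 (exact permutation p = 0.0043, adjusted 0.0097) and in eWAT than in BAT by 1.36 (exact permutation p = 0.0065, adjusted 0.0097). The BAT values were also known when the ratio was chosen, so p-values for the pairs with BAT are descriptions and no independent test. With Cdh5 alone below the line, the ratio was 1.31 ± 0.11 in iWAT, 1.56 ± 0.24 in eWAT and 0.810 ± 0.489 in BAT, and the adjusted exact permutation p was 0.061 for iWAT against eWAT (log2 difference -0.24), 0.061 for iWAT against BAT and 0.045 for eWAT against BAT. The part that the number of endothelial cells plays in the Cldn5 levels was not tested.

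**Figure D3:**
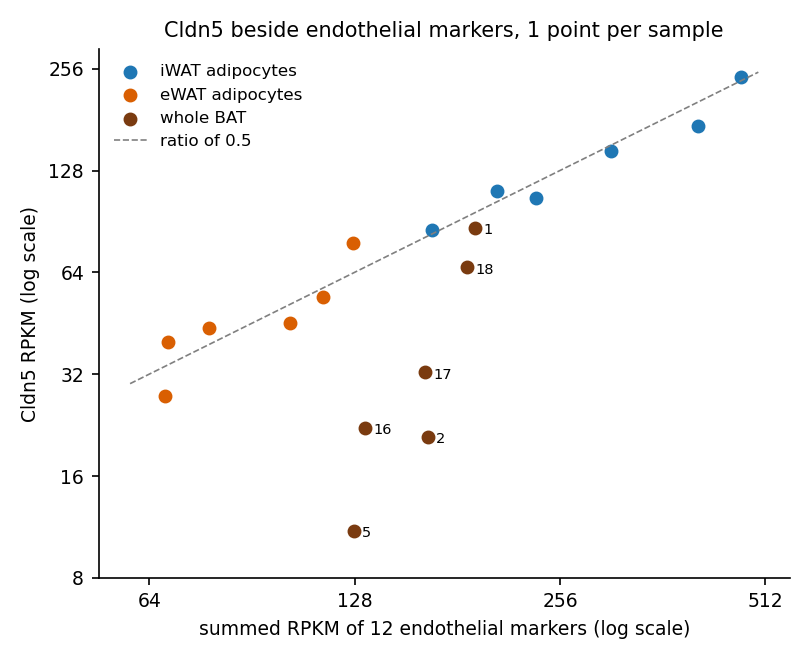
Cldn5 RPKM against the summed RPKM of 12 endothelial markers, 1 point per sample, both axes on a log scale, with BAT points labelled by replicate number and a dashed line at a ratio of 0.5. White adipocyte samples lie along the line at ratios of 0.408 to 0.612, while BAT samples fall steeply from 0.451 in replicate 1 to 0.0865 in replicate 5.

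Cldn15 forms pores for small cations and is known from the intestine, where it lets sodium pass between cells. Its RPKM was 19.5 at the lowest, 24.3 at the median and 30.1 at the highest in iWAT (mean 24.9 ± 4.30, n = 6), 4.84, 5.41 and 6.12 in eWAT (5.404 ± 0.492), and 2.83, 3.52 and 6.06 in BAT (3.88 ± 1.13). The iWAT samples lay above all 12 others without overlap, where 65.3% of all genes tested did not overlap between iWAT and BAT. In BAT, replicate 1 at 6.06 stood apart from the next at 3.99 and reached into the range of eWAT.

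Cldn15 had the largest difference of the members tested between iWAT and eWAT, 2.21 on the log2 scale (SE 0.10, edgeR adjusted p = 3.3e-08), a 4.61-fold ratio of mean RPKM. It was 2.14 within lane 1 and 2.24 within lane 2. Against BAT, Cldn15 was higher in iWAT by 2.07 (SE 0.15, edgeR adjusted p = 4.0e-09), and by 2.93 without TMM scaling. Between eWAT and BAT the log2 difference was -0.11 (SE 0.14, edgeR adjusted p = 0.47), but without TMM scaling it was 0.80 with an edgeR adjusted p of 0.00014, so this comparison turned on the scaling. TMM scaling set the median of all genes near 0, and without it that median was 0.87 for iWAT over BAT and 0.89 for eWAT over BAT. The share of calls that were higher in iWAT than in BAT was then 81.8% rather than 50.6%, and the share higher in eWAT than in BAT 76.2% rather than 49.8%.

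Cldn12 is broadly expressed, lacks the usual C-terminal motif by which claudins bind scaffold proteins, and has been linked to calcium passage in the gut. Its RPKM was 3.77 at the lowest, 3.94 at the median and 4.62 at the highest in iWAT (mean 4.06 ± 0.333, n = 6), 1.39, 1.96 and 2.24 in eWAT (1.90 ± 0.339), and 3.31, 4.08 and 5.05 in BAT (4.11 ± 0.619). eWAT was lowest without overlap with either tissue, while iWAT and BAT overlapped throughout. Between eWAT and BAT, 68.4% of all genes tested did not overlap. Its spread in iWAT, a coefficient of variation of 8.20%, was below the median of 11.2% over all genes of at least 1 RPKM there, unlike that of Cldn5.

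Cldn12 was higher in iWAT than in eWAT by 1.10 on the log2 scale (SE 0.12, edgeR adjusted p = 4.6e-06), with 1.06 within lane 1 and 1.158 within lane 2. The log2 difference of eWAT over BAT was -1.70 (SE 0.13, edgeR adjusted p = 6.3e-09), and -0.79 without TMM scaling. For iWAT against BAT the log2 difference was -0.62 (SE 0.10, edgeR adjusted p = 3.3e-05), yet 0.23 without TMM scaling (edgeR adjusted p = 0.063) and -0.01 by limma on log2(RPKM + 0.1), so its direction was set by the scaling.

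**Figure D4:**
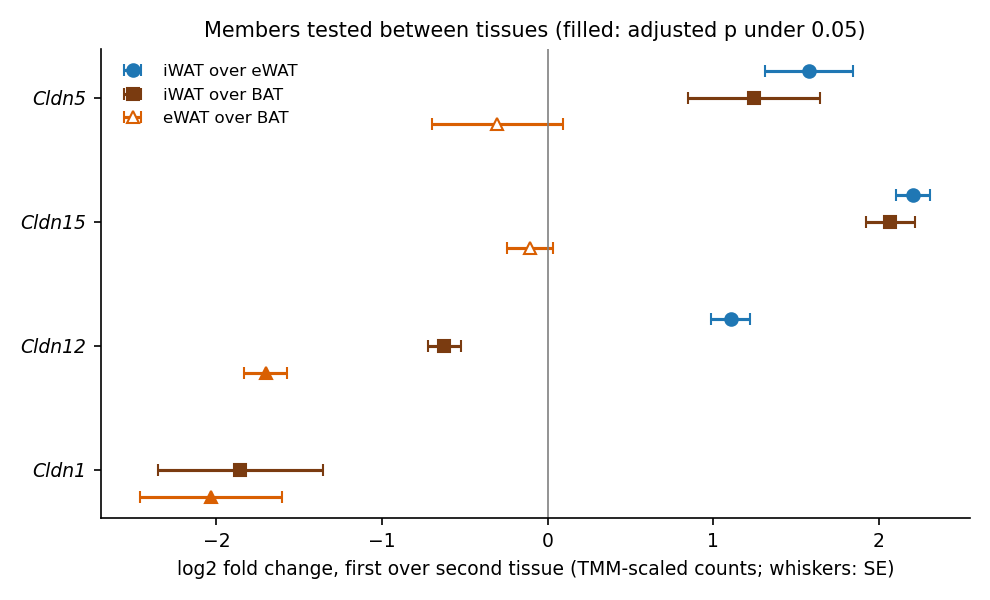
Log2 fold changes (points) with SE (whiskers) of the members tested in each pair of tissues, from edgeR with TMM scaling, filled where the adjusted p was under 0.05. Cldn5, Cldn15 and Cldn12 lie right of 0 for iWAT over eWAT, and the open points of Cldn5 and Cldn15 for eWAT over BAT lie near 0; the iWAT over BAT point of Cldn12 turned to 0.23 without TMM scaling.

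Cldn1, a sealing claudin without which the skin barrier fails, was the sole low member with enough reads to be tested, and only against BAT. It had 7 to 33 reads in BAT (RPKM 0.060 at the lowest, 0.152 at the median and 0.197 at the highest), 0 to 21 reads in iWAT (0, 0.065 and 0.137) and 1 to 21 in eWAT (0.0066, 0.043 and 0.123). The reads summed to 144 in BAT, 56 in iWAT and 52 in eWAT, and BAT overlapped both white depots. Cldn1 reached the mean count of 10 only through BAT, so its values against BAT are given as a description. The log2 difference was -1.86 for iWAT over BAT (SE 0.50, edgeR adjusted p = 0.0032) and -2.03 for eWAT over BAT (SE 0.43, edgeR adjusted p = 0.00043). Without TMM scaling they were -1.01 (edgeR adjusted p = 0.078) and -1.15 (edgeR adjusted p = 0.023).

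Cldn3, Cldn4 and Cldn7 are claudins of simple epithelia, and Cldn3 and Cldn4 are the receptors of Clostridium perfringens enterotoxin. Their mean counts were under 10 in every pair of tissues, so none was tested. With the filter on low counts lifted, Cldn3 and Cldn4 were called higher in eWAT than in iWAT and BAT, and Cldn7 higher in BAT than in iWAT (log2 difference -2.34, edgeR adjusted p = 0.0041). Reads of Cldn3 were 29 in eWAT replicate 16, 13 in replicate 3, 11 in replicate 1 and 1 to 5 in the other eWAT samples, against 0 to 2 in iWAT and 0 to 4 in BAT. Cldn4 had 22 reads in eWAT replicate 16, 5 or 6 in replicates 1, 2 and 3 and none in replicates 4 and 5, no read in any iWAT sample and at most 1 in BAT. Cldn7 had 18 reads in eWAT replicate 16, 8 in replicate 1 and 1 to 4 in the rest, against 0 to 4 in iWAT and 2 to 6 in BAT. The eWAT signal of all 3 genes was thus highest in the same library, and a count of 0 allows up to 3 reads, which was at most 0.104 RPKM for Cldn3, 0.072 for Cldn4 and 0.067 for Cldn7 in any sample.

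The same eWAT libraries held markers of the epididymis. The 8 epididymal epithelial markers, among them Lcn5, Crisp1 and Rnase9, which encode proteins secreted by the epididymal duct, summed to 22.1 RPKM in replicate 16, 12.5 in replicate 3, 8.68 in replicate 1, 2.72 in replicate 2, 0.360 in replicate 4 and 0.167 in replicate 5. In iWAT and BAT the sum stayed between 0 and 0.119 RPKM, with 7 of 8 markers at 3 reads or fewer in every sample. The 17 general epithelial markers summed to 0.722 to 4.41 RPKM in eWAT, again highest in replicate 16, 0.186 to 0.635 in iWAT and 0.123 to 0.265 in BAT. The part of epididymal tissue in the reads of Cldn3, Cldn4 and Cldn7 was not tested. Leaving out eWAT replicate 16 changed no call of a tested member.

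**Figure D5:**
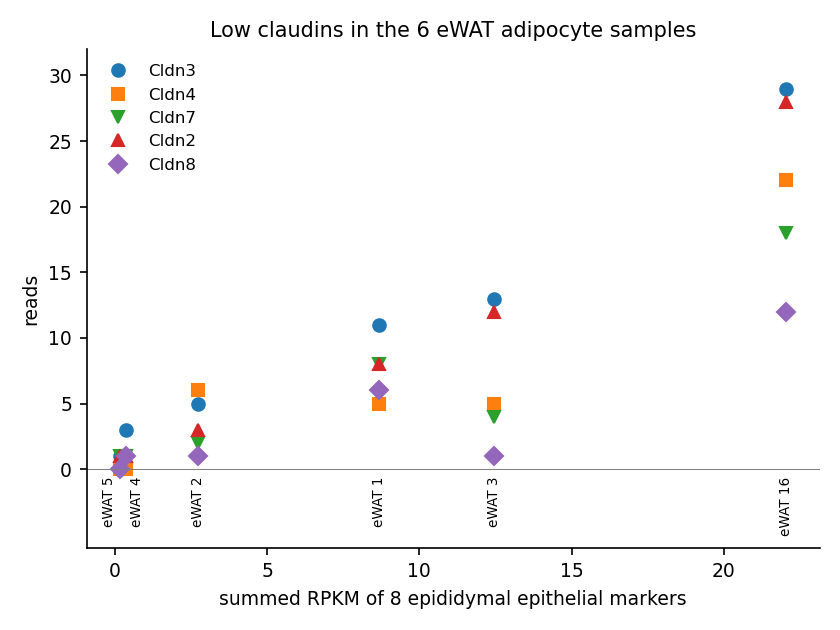
Reads of Cldn3, Cldn4, Cldn7, Cldn2 and Cldn8 in each of the 6 eWAT adipocyte samples against the summed RPKM of 8 epididymal epithelial markers in the same sample (linear axes, samples named under their points). Replicate 16, at 22.1 RPKM of markers, has the most reads of all 5 genes, and replicates 4 and 5, under 0.4 RPKM, have 0 to 3. The low members Cldn1, Cldn10 and Cldn11 are not shown. Cldn1 is highest in replicate 16 (21 reads), Cldn10 in replicate 4 (7, against 1 in replicate 16) and Cldn11 in replicate 1 (6, against 1 in replicate 16).

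The last 2 members were near the floor throughout. Cldn10, a pore-forming claudin of kidney and glands, had 0 to 4 reads in iWAT, 0 to 7 in eWAT and a single read in all 6 BAT samples together. Cldn11, which makes the tight junctions of central myelin and of Sertoli cells, had 1 read in all iWAT samples together, 0 to 6 in eWAT and 0 to 2 in BAT. Neither reached the mean count needed for the test. With that filter lifted, Cldn10 was called higher in iWAT and in eWAT than in BAT (edgeR adjusted p = 0.043 and 0.016), on these few reads.

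Of the other 14 claudin genes, 3 (Cldn13, Cldn16 and Cldn17) had no read in any sample, 4 more (Cldn6, Cldn9, Cldn14 and Cldn18) had at most 2 in any sample, and Cldn20 had at most 4. Cldn2, a cation pore of leaky epithelia, and Cldn8, a kidney claudin, had up to 28 and 12 reads in eWAT, both highest in replicate 16, and at most 2 and 0 reads elsewhere. The row of Cldn19 overlaps another gene on the other strand by 1562 of 7025 bases and that of Cldn20 lies wholly within Tfb1m, so their reads are uncertain. Cldn19, a claudin of Schwann cells and kidney, had 1 to 27 reads in iWAT, with 27 in replicate 1 and 1 and 2 in replicates 2 and 16. The 6 Schwann markers summed to 6.37 to 21.4 RPKM in iWAT, 5.81 to 6.91 in eWAT and 4.19 to 7.06 in BAT, and their part in the Cldn19 reads was not tested.

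Cldn23 differed between the white depots in the opposite direction to Cldn5, Cldn15 and Cldn12. Its RPKM was 0.741 to 1.20 in eWAT, 0.302 to 0.548 in iWAT and 0 to 0.048 in BAT, where no sample had over 3 reads. The log2 difference of iWAT over eWAT was -1.06 (SE 0.17, edgeR adjusted p = 0.00013). The row of Cldn23 shares 787 of its 1851 bases with AK044335 on the other strand, so its reads are uncertain. Cldn24 had a log2 difference of iWAT over eWAT of 1.93 (SE 0.33, edgeR adjusted p = 0.00021), at 13 to 20 against 1 to 9 reads. That of Cldn22 was 1.55 (SE 0.35, edgeR adjusted p = 0.0017), but its row lies wholly within Wwc2 on the other strand and its reads are uncertain. Reads summed to 97 in iWAT and 27 in eWAT for Cldn24, and to 154 and 56 for Cldn22. Both genes passed the filter on the mean count only through their reads in iWAT, so their values are given as a description. The claudin domain gene Cldnd1, no tight junction claudin, was at 9.004 to 11.47 RPKM in white adipocytes and 6.28 to 8.78 in BAT, with a log2 difference of 0.0036 between iWAT and eWAT (SE 0.069, edgeR adjusted p = 0.97).

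Most partners of claudins at tight junctions were expressed. Of 22 partner genes listed, 18 had enough reads to be tested. Between iWAT and eWAT, 11 were higher in iWAT and 5 higher in eWAT, with a median log2 difference of 0.91 (all genes 0.0014). Among all genes tested there, 34.1% were called higher in iWAT and 34.5% higher in eWAT. Tjp1, the scaffold ZO-1 that binds claudin tails, was 11.7 to 22.2 RPKM in iWAT and 3.60 to 7.11 in eWAT, a log2 difference of 1.63 (SE 0.18, edgeR adjusted p = 4.6e-06). F11r, the junctional adhesion molecule JAM-A, differed by 1.59 (SE 0.21, edgeR adjusted p = 2.2e-05) in the same direction. Among those higher in eWAT were Tjp3 (ZO-3) at -1.81 (SE 0.23, edgeR adjusted p = 1.8e-05), Marveld2, Pard6b and Lsr. Both directions therefore occurred among the partners where the 3 abundant claudins had one.

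Ocln, which encodes occludin, was near the floor with at most 9 reads in any sample, again in eWAT replicate 16. Marveld3, Cgn and Igsf5 were also too low to test, with at most 5 reads. Between iWAT and BAT 7 partners were higher in iWAT and 4 in BAT (median 0.21, all genes 0.014). Between eWAT and BAT 5 were higher in eWAT and 9 in BAT (median -0.46, all genes -0.017), with Tjp1 at -1.60 (SE 0.13, edgeR adjusted p = 1.7e-08). The partners tested were 18 in both comparisons. With 75.3% of all genes called between iWAT and BAT and 82.5% between eWAT and BAT, these counts say little by themselves. Cxadr, an adhesion receptor of junctions, was at 7.63 to 9.86 RPKM in BAT, 0.459 to 1.13 in iWAT and 0.0925 to 0.412 in eWAT.

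Within each tissue, Cldn5 and Cldn15 varied together. After the mean of each tissue was subtracted from log2 TMM-scaled RPKM, Pearson's r over the 18 samples was 0.76 between Cldn5 and Cldn15, and it was 0.75 within iWAT, 0.76 within eWAT and 0.77 within BAT. Between Cldn5 and Cldn12 it was -0.23 over the 18 samples, and -0.60, 0.36 and -0.54 within iWAT, eWAT and BAT. Between Cldn15 and Cldn12 it was -0.11 over the 18 samples, and -0.48, 0.72 and -0.45 within the tissues, so both had another sign in eWAT. These are descriptions over samples that share library preparation and composition.

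The genes most like each abundant claudin in this measure, among those of at least 1 RPKM on average, were as follows. For Cldn5 they were Trp53i11 (r = 0.97), Triobp (0.94) and Rhbdf2 (0.93), and r with Cdh5 was 0.74 over all 18 samples and 0.98, 0.90 and 0.98 within iWAT, eWAT and BAT. For Cldn15 they were Ldb1 (0.84), Trappc6a (0.83) and Prr24 (0.83). Its r was 0.73 with Esam, an endothelial adhesion molecule, and 0.65, 0.60 and 0.53 with the endothelial markers Tie1, Cdh5 and Pecam1. For Cldn5, r with Esam, Tie1 and Pecam1 was 0.81, 0.71 and 0.65. Within eWAT, r with Cldn15 was 0.62 for Ldb1, -0.018 for Trappc6a and 0.96 for Prr24, so Trappc6a did not follow Cldn15 there. For Cldn12 they were Ccdc80 (0.92), LOC100503263 (0.92), which lies on the same bases as Ccdc80 and shares its reads, and Ucp3 (0.92), a mitochondrial carrier of muscle and brown fat, while r with Cdh5 was -0.19. The rows of Trp53i11, Triobp, Ldb1 and Ucp3 overlap other genes in part, that of Trp53i11 by 2502 of 14212 bases on the same strand. Their reads are uncertain to that extent.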

How the data were processed

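The 18 libraries were grouped by tissue from their labels. Per the labels, the authors used the NEBNext Ultra kit and an Illumina HiSeq machine, and the genome build was mm9. The submitters' processing notes list cutadapt 1.16 and HISAT2 2.1.0. The counting program and annotation are not given in the sources used here. The deposited files give a read count, a whole number, for each of 53445 rows, and an RPKM value per row, also computed by the authors. Where a symbol had several rows, that of greatest mean RPKM stood for it.

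Counts were compared with edgeR 4.0.16 (glmQLFit and glmQLFTest, two-sided, 12 samples per fit) under R 4.3.3. A mean count of 10 or more was required, TMM factors were computed on the genes kept, and Benjamini-Hochberg adjustment ran over every gene tested. SE values were derived from the quasi-likelihood F statistic. The test was tested on simulated data. Alternatives used DESeq2 1.42.0, limma 3.58.1 on log2(RPKM + 0.1) and log2(RPKM + 1), no scaling, no filter, a replicate block, lane as a covariate, all 18 samples in one fit, summed rows, a threshold of 1 on the log2 fold change and each sample left out. Ratios of Cldn5 to endothelial markers were compared by exact permutation of samples on log2 ratios.

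The members and lists were chosen with earlier results of these data known, so their counts support nothing beyond themselves. All 9 members were named, other claudins were given by range, and for members of at least 1 RPKM in a tissue the 3 genes with the highest r were named. Cldn23, Cldn24, Cldn22, Cldn19, Cldn2, Cldn8, Cdh5, Esam, Ocln and the partners given with values were picked after their values were seen or for their level. The labels do not say whether samples came from separate animals, and p-values measure the spread between these samples. A count of 0 was taken to allow 3 reads, and such limits cover counting error only. Other steps ran in Python 3.11.15 (scipy 1.17.1, numpy 2.4.6, pandas 2.3.3) and were plotted with matplotlib 3.10.9. Some results are not reported here.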

Additional observations from a re-analysis of the deposited data

Results flagged for a closer look

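In 40 groups of 6 samples with claudin values, 2 held a sample whose gap to the next was over Dixon's critical share of the group's range, which is the number that chance gives at 1 in 20. The RPKM of Cldn15 in BAT replicate 1 was 6.06, with the next highest at 3.99. Reads of Cldn4 in eWAT replicate 16 were 22, with the next highest at 6. Replicate 1 also had the highest Cldn5 level of the BAT samples, 86.6 RPKM, and the highest summed endothelial markers, 192 RPKM. BAT replicate 18 came next in both, at 66.2 and 187 RPKM, but its Cldn15 was 3.49 RPKM, under the BAT median of 3.52. A link between these values was not tested.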

How the results depend on the processing

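The 3 calls between iWAT and eWAT adipocytes kept direction and side of the threshold under DESeq2, no scaling, no filter, limma, lane, all samples in one fit and summed rows, and when each sample was left out, where Cldn5 ran from 1.39 to 1.77, Cldn15 from 2.16 to 2.27 and Cldn12 from 1.02 to 1.158 on the log2 scale. Against a log2 fold change of 1, Cldn12 lost its call. Without the filter on low counts, 5 of 9 members were called between iWAT and eWAT adipocytes (adding Cldn3 and Cldn4, higher in eWAT). Between eWAT adipocytes and BAT 5 of 9 were called (adding Cldn3, Cldn4 and Cldn10). Between iWAT adipocytes and BAT 6 of 9 were called (adding Cldn7, higher in BAT, and Cldn10, higher in iWAT). Over all genes, this setting called 14431 between iWAT and eWAT adipocytes, 22026 between eWAT adipocytes and BAT and 19467 between iWAT adipocytes and BAT. In each comparison that was a smaller share of the genes tested than in the main fit. The added members all had mean counts under 10, so their calls rest on few reads. Between iWAT adipocytes and BAT, 2 members (Cldn5 and Cldn15) were called without TMM scaling and 1 (Cldn15) in the test against a log2 fold change of 1. Over all genes, that last test called 2192 of 19623 between iWAT and eWAT adipocytes, 5765 of 19745 between iWAT adipocytes and BAT and 8180 of 20076 between eWAT adipocytes and BAT. The main fit called 13454, 14864 and 16561 of the same genes.

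Some of the comparisons with BAT turned on scaling. Without TMM scaling, Cldn5 and Cldn15 in iWAT over BAT, at 2.102 and 2.93, and Cldn12 in eWAT over BAT, at -0.79, kept their direction and their call. Cldn1 in eWAT over BAT was then -1.15. It passed the filter only through its reads in BAT, so this value is a description and no sign of a stable call. Without TMM scaling Cldn12 in iWAT over BAT was 0.23, and in eWAT over BAT Cldn5 was 0.58 and Cldn15 0.80. By limma on log2(RPKM + 0.1) and log2(RPKM + 1), eWAT over BAT was 0.54 and 0.52 for Cldn5 and 0.50 and 0.42 for Cldn15. With each sample left out, eWAT over BAT ran from -0.51 to 0.04 for Cldn5 and from -0.19 to 0.03 for Cldn15, crossing 0 without BAT replicate 1 (0.041 and 0.034), and neither was called in any of these fits. Which scaling is right for BAT was not tested.

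The number in the sample titles was tried as a replicate block, although the labels do not call it an animal. Deviations of same-numbered samples from their tissue means had a mean correlation of -0.005 between iWAT and eWAT (from -0.25 to 0.43), -0.013 between iWAT and BAT and 0.0079 between eWAT and BAT. Each sample was also checked against every other tissue that held its number, which gave 28 checks in which samples recur. In 4 of these checks the best correlation was with the own number, and the number that chance gives was not worked out. The replicate block kept only samples whose number stood in both tissues, which left 4 per tissue against BAT, without BAT replicates 17 and 18. With it, the count of members called did not move, and Cldn5 in eWAT over BAT was 0.00068 (edgeR adjusted p = 0.999). The effects of the block and of the samples left out cannot be told apart there.

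The ratio of Cldn5 to endothelial markers was chosen after the data were seen, so its values are a description. When each sample was left out, the log2 difference was 1.06 to 1.54 for iWAT against BAT and 1.12 to 1.60 for eWAT against BAT. The adjusted exact permutation p was at most 0.0195 in these 2 pairs. For iWAT against eWAT, which was not under 0.05 at any point, the log2 difference was -0.12 to -0.0053. With Cdh5 alone, iWAT against BAT was 0.91, with an adjusted exact permutation p of 0.061.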
